A study of Mus musculus with 12 samples.

Results

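Expression of 5 genes that encode MS4A membrane proteins (Ms4a4c, Ms4a6b, Ms4a6c, Ms4a6d and Ms4a7) was examined in mouse bone marrow-derived macrophages (BMDMs) exposed to IL-4, to LPS, or to both. Each gene was taken by its exact symbol from the expression tables and had 1 row, so the set held 5 of the 23361 gene symbols. All 5 genes passed the expression filter, an FPKM (sequenced fragments scaled to transcript length and to the mapped fragments of the sample) of at least 1 in at least 1 sample, which kept 11191 of 23847 rows.

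MS4A proteins are small proteins that cross the plasma membrane several times, and many of them are thought to act by associating with other receptors at the cell surface. The best known members are CD20 (Ms4a1) of B cells and the beta chain of the high-affinity IgE receptor (Ms4a2) of mast cells. Other members are expressed by monocytes and macrophages, and the genes sit side by side in a cluster that arose by repeated duplication. IL-4 is a cytokine that signals through the transcription factor STAT6 and drives alternative macrophage polarization, whereas LPS, a component of the bacterial cell wall, drives inflammatory and interferon-stimulated genes through Toll-like receptor 4 signaling.

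Poly-A selected RNA was sequenced from primary BMDMs of wild-type C57BL/6 mice, 8 to 12 weeks of age, differentiated for 6 days in L929 supernatant as a source of M-CSF. All 4 groups shared this background: control cells received no stimulus, IL-4 cells received 20 ng/ml IL-4 for 24 h, LPS cells received 100 ng/ml LPS for 3 h, and IL-4+LPS cells were pretreated with the same IL-4 and then exposed to the same LPS. Each group held 3 samples, 12 in all, and the labels do not tie a sample to an animal. The study describes these RNA-seq data as averages of 3 individual animals from more than a single experiment. It does not say which sample came from which animal, or whether samples of the same number share one. The samples were taken as unpaired, so the p-values measure the spread between these samples. The LPS dose is that of the labels, whereas the methods of the study state it in nM.

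FPKM totals ran from 457583 to 495025 per sample, and relative depth, read from the steps between low values, from 0.98 to 3.32 (control replicate 1 set to 1). Pearson r between replicates of a group was 0.9544 to 0.9828. All 8 macrophage markers were detected, and their summed level was 19438 to 20860 FPKM in control and 7241 to 7426 in IL-4+LPS, with Lyz2 the largest part. B cell, T and NK cell, mast cell, dendritic cell and fibroblast markers summed to at most 4.36, 3.21, 0.373, 3.72 and 0.230 FPKM in any sample. The B cell, T and NK cell, mast cell and granulocyte lists include Ms4a1, Ms4a4b, Ms4a2 and Ms4a3, which belong to the family studied here. Ms4a4b, at up to 2.75 FPKM, was the largest part of the highest T and NK cell sum. The mast cell proteases Mcpt4 and Tpsb2 were at 0 throughout. Granulocyte markers, mostly S100a8 and S100a9, summed to 211 to 976 FPKM, and their part in the results was not tested. Replicate 1 stood apart for these genes: Ms4a4c, Ms4a6b, Ms4a6c and Ms4a7 were each highest in replicate 1 in all 4 groups, a pattern shown by 17.0% of all rows tested. A further 15.5% of all rows were lowest in replicate 1 in all 4 groups.

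The 5 genes lie within the Ms4a cluster of chromosome 19 (mm10), all of them protein-coding. Ms4a7 spans chr19:11321039-11336146 on the minus strand, Ms4a4c chr19:11407661-11427246 on the plus strand, Ms4a6c chr19:11469368-11482196 on the plus strand, Ms4a6b chr19:11518559-11530403 on the plus strand and Ms4a6d chr19:11586606-11604804 on the minus strand. Ms4a4b, the closest relative of Ms4a4c and a gene studied mainly in T cells, lies between Ms4a4c and Ms4a6c at chr19:11443558-11463548. Coding sequences were 91.7% identical between Ms4a4c and Ms4a4b, 80.8% between Ms4a6b and Ms4a6d, 75.9% between Ms4a6b and Ms4a6c, and 69.7% between Ms4a6c and Ms4a6d. Ms4a7 was 50.6% to 54.6% identical to the other 4 genes. Such likeness limits how reads are assigned: 8.48% of the 50-base words of the Ms4a4c transcript, 11.3% of those of Ms4a6c, 5.89% for Ms4a6b, 2.92% for Ms4a6d and 0 for Ms4a7 also occur in transcripts of another gene.

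The sequences just before the transcription start show the same family structure. RefSeq (GRCm38.p6) held promoter windows for 4 of the 5 genes and for Ms4a4b, each 250 bases before to 50 bases after the start. GENCODE begins Ms4a4c and Ms4a6b further upstream, at chr19:11404770 and chr19:11516512, and the sequence before those starts was not searched. The stretch before the start is printed 5′ to 3′ on the strand of the gene, without the bases that GENCODE places in an exon (5 for Ms4a4b, 2 for Ms4a6c and 106 for Ms4a6b). In the first pair, capitals mark runs of at least 14 bases that recur in the window of the paired gene. They fill 27.2% of the 250 bases in both genes, and the longest run is 20 bases.
Ms4a4c (chr19:11407411-11407660, plus strand): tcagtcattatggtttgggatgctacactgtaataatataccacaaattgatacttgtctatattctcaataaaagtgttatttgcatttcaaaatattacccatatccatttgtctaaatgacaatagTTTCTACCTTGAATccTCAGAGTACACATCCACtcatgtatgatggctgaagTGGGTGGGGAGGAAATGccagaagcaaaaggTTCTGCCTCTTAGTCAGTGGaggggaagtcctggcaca
Ms4a4b (chr19:11443308-11443552, plus strand): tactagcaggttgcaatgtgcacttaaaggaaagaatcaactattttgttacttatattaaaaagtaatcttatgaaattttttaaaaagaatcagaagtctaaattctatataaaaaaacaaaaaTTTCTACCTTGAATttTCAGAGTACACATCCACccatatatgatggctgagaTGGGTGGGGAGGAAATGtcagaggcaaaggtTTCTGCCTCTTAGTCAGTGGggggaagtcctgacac

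In the pair Ms4a6c and Ms4a6b, shared runs of at least 14 bases (capitals) fill 28.8% of the 250 bases of Ms4a6c and 34.4% of those of Ms4a6b, and the longest is 48 bases. In all other pairings of the 5 windows, Ms4a7 included, the longest shared run was 7 to 9 bases.
Ms4a6c (chr19:11469118-11469365, plus strand): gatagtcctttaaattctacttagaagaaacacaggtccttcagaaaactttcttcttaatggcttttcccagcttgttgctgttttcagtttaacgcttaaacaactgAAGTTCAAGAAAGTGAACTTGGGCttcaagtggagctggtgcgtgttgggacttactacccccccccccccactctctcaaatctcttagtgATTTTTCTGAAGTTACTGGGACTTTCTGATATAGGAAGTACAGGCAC
Ms4a6b (chr19:11518309-11518452, plus strand): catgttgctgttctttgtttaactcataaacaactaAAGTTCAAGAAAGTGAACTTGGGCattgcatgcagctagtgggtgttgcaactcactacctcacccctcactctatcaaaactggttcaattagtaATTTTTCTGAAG

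RefSeq lists 2 starts for Ms4a7. The window of the first, at the gene's start in the expression tables, shared no such run, and its capitals mark instead a palindrome of the kind STAT6 binds, TTC and GAA with any 4 bases between them, which starts 13 bases before the transcription start.
Ms4a7 (chr19:11336147-11336396, minus strand): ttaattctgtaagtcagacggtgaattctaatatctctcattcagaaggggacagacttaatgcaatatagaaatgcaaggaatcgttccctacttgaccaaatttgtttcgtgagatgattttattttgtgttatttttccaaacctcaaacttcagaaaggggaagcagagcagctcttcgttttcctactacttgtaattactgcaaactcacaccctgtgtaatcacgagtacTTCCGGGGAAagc

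The Ms4a7 match reads TTCCGGGGAA, and the window of the second start (chr19:11334646-11334945) held no match to it. A second match, TTCACAAGAA, lies in the window of Ms4a6b from position 9 after its start (chr19:11518567-11518576). Both matches belong to genes that were lower after IL-4, as were Ms4a4c and Ms4a6c, whose windows held no match. Of 32851 mouse promoter windows of the same length, 6.95% held this palindrome. No window of the 4 genes held the GAS palindrome TTCNNNGAA (8.30% of promoters), the interferon-stimulated response element core of a pair of GAAA with any 2 bases between them (3.44%), the PU.1 core GAGGAAG (13.6%) or the kB site (8.46%). Motifs were searched on both strands, and matches of different motifs may overlap. A match describes letters only and is no evidence of binding.

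In resting BMDMs the 5 genes covered a wide range of expression. Ms4a7, a macrophage gene, was the most abundant with FPKM values of 779, 646 and 616 in replicates 1, 2 and 3, which placed its mean at rank 72 of the 11191 rows. The 3 Ms4a6 genes followed. Ms4a6c, a gene also typical of blood monocytes, was at 169.9, 119 and 125 FPKM. Ms4a6d stood at 126, 111 and 111 FPKM, and Ms4a6b, studied mainly in T cells, at 80.9, 52.7 and 46.9 FPKM. Ms4a4c, a gene of monocytes, was low at 3.45, 2.46 and 1.51 FPKM. Ms4a6c and Ms4a6d were the only neighbours in this order whose ranges overlapped in control, although Ms4a6c was the higher in 3 of 3 samples. Since these are bulk samples, fewer cells of a kind and less RNA per cell cannot be told apart for any of the genes.

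**Figure D1:**
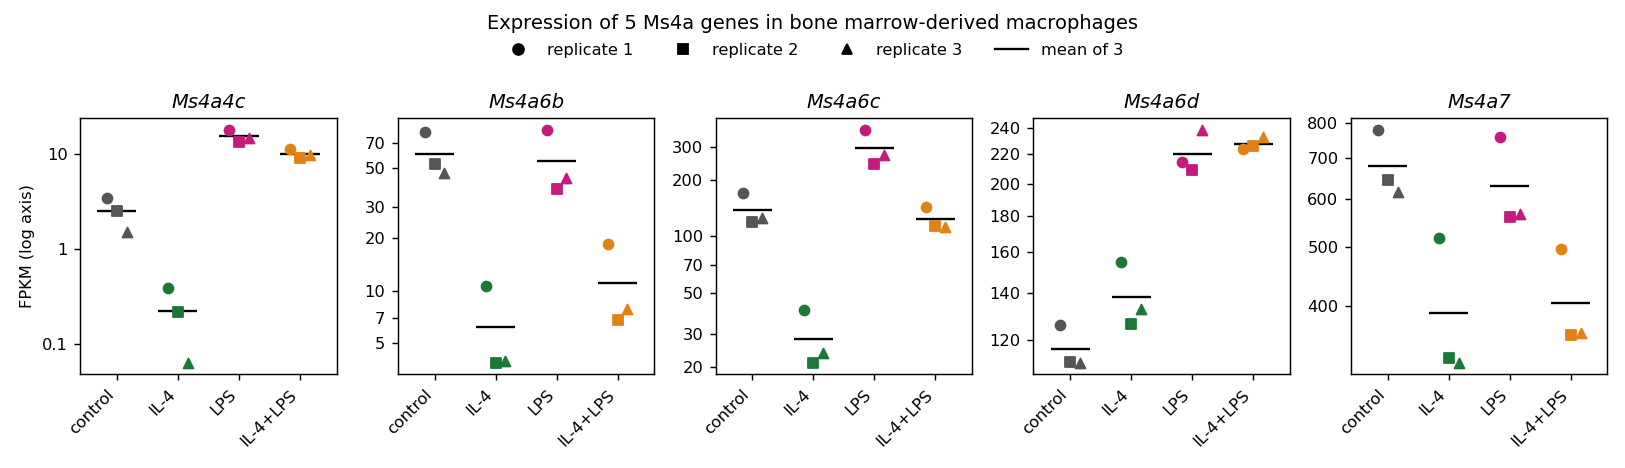
FPKM (log axis, a separate scale for each gene) of the 5 Ms4a genes in each of the 12 samples; marker shapes are replicates 1 to 3 and bars are group means (n = 3). Ms4a4c, Ms4a6b, Ms4a6c and Ms4a7 sit lower after IL-4 than in control in every sample, whereas Ms4a6d does not, and replicate 1 (circles) is the highest sample of each group in 4 of the 5 genes.

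IL-4 alone lowered 4 of the 5 genes and raised none. Across all rows tested, 37.0% were called in this comparison, 21.0% lower and 16.0% higher (limma on log2(FPKM + 1), Benjamini-Hochberg adjusted p under 0.05). Ms4a6b fell furthest on that scale, from 60.2 ± 18.2 to 6.17 ± 3.90 FPKM (mean ± SD, n = 3). Its values after IL-4 were 10.7, 3.88 and 3.96 FPKM, all below the lowest control. The log2 fold change was -3.18 (SE 0.448, adjusted p = 0.000359), and the ratio of means was 9.76-fold lower.

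Ms4a6c fell from 138 ± 27.9 to 28.4 ± 10.4 FPKM, with samples at 40.3, 21.2 and 23.8 and no overlap with control. Its log2 fold change was -2.28 (SE 0.242, adjusted p = 5.19e-05), a ratio of 4.85-fold lower. Ms4a4c was close to 0. It measured 0.386, 0.215 and 0.0628 FPKM after IL-4, and the log2 fold change of -1.48 (SE 0.195, adjusted p = 0.00023) understates a ratio of means of 11.2-fold lower, because 1 was added to each value before the log was taken. Ratios between single control and IL-4 samples of Ms4a4c ran from 3.92-fold to 54.8-fold lower, so its size is poorly fixed; with 0.1 added in place of 1 the log2 fold change was -3.06 (SE 0.369).

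Ms4a7 changed least among the genes that fell. It went from 680 ± 86.6 to 390 ± 111 FPKM, with IL-4 samples at 518, 330 and 323, a log2 fold change of -0.83 (SE 0.205, adjusted p = 0.00983). This is a ratio of 1.74-fold lower, and Ms4a7 remained the most abundant of the 5 genes, at rank 157 of all rows. Ms4a6d was not lower. Its values of 155, 126 and 133 FPKM after IL-4 all lay above control, the nearest by less than 1 FPKM, and the log2 difference of 0.24 (95% interval 0.05 to 0.44) did not pass the threshold (adjusted p = 0.0512). With replicates 2 and 3 only, Ms4a6d passed it (log2 difference 0.22, adjusted p = 0.0303), as it did without control replicate 1 (0.30, adjusted p = 0.0333) or IL-4 replicate 2 (0.30, adjusted p = 0.0371). Other fits moved away from it: quantile normalization gave 0.14 (adjusted p = 0.318) and leaving out IL-4 replicate 1 gave 0.16 (adjusted p = 0.155). Without control replicate 2 or 3, Ms4a6d was at 0.21 in both fits (adjusted p = 0.144 and 0.148).

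LPS alone raised 3 of the 5 genes and lowered none. LPS shifted the whole distribution, since the median log2 difference of all rows was -0.44, with 74.6% of rows called, 57.7% lower and 16.9% higher. This comparison shares its control samples with that of IL-4. Values are given as measured and, where stated, relative to that median.

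The largest response to LPS was that of Ms4a4c, from 2.47 ± 0.968 FPKM in control to 17.7, 13.3 and 14.6 FPKM. Its log2 fold change was 2.25 (SE 0.195, adjusted p = 2.21e-06), or 2.69 above the median of all rows, and the ratio of means was 6.13. Every LPS sample exceeded every control. Ms4a6c rose to 368, 242 and 271 FPKM, a log2 fold change of 1.08 (SE 0.242, adjusted p = 0.00199) and a ratio of 2.13. Ms4a6d rose to 215, 209 and 238 FPKM, a log2 fold change of 0.92 (SE 0.087, adjusted p = 4.32e-06) and a ratio of 1.90. Neither gene overlapped with control.

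Ms4a6b and Ms4a7 did not pass the threshold under LPS. Ms4a6b was at 82.4, 37.8 and 43.8 FPKM, a range that spans control, with a log2 difference of -0.18 (95% interval -1.17 to 0.82, adjusted p = 0.732). Ms4a7 was at 759.8, 561 and 568 FPKM, with a log2 difference of -0.12 (95% interval -0.57 to 0.34, adjusted p = 0.615). Their direction depended on scaling: relative to the median of all rows the differences were 0.27 and 0.33, and median scaling of the samples gave 0.19 and 0.25. With replicates 2 and 3 only, both were called lower as measured, Ms4a6b at -0.28 (adjusted p = 0.031) and Ms4a7 at -0.16 (adjusted p = 0.00629).

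**Figure D2:**
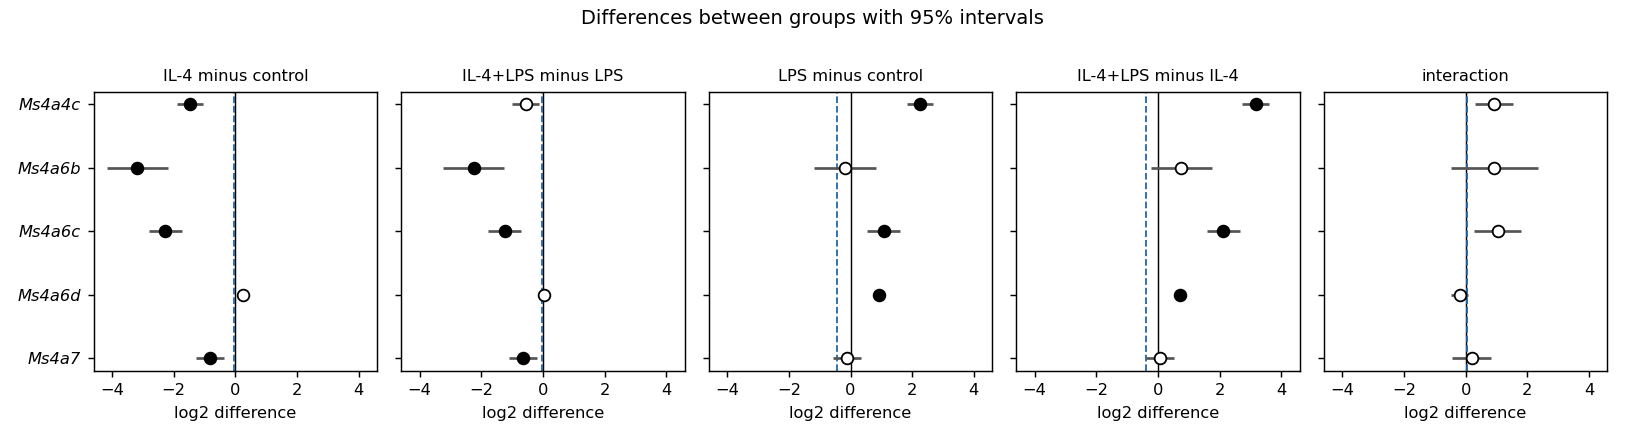
Log2 difference of log2(FPKM + 1) for the 5 genes in each of the 5 comparisons, with bars for the 95% interval of the limma fit. Filled points have an adjusted p under 0.05 and the dashed line is the median of all 11191 rows. IL-4 lowered 4 genes, LPS raised 3 genes both without and after IL-4, and no interaction is filled.

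In IL-4-pretreated BMDMs, LPS raised the same 3 genes: Ms4a4c, Ms4a6c and Ms4a6d were called higher in IL-4+LPS than in IL-4, and none was called lower. Of all rows, 72.9% were called, 15.0% higher and 57.9% lower, with a median log2 difference of -0.41. Ms4a4c rose from near 0 to 11.3, 8.94 and 9.57 FPKM. Its log2 fold change was 3.16 (SE 0.195, adjusted p = 2.41e-07), and the ratio of means, 44.8, rests on IL-4 values below 0.4 FPKM and ran from 23.2 to 179 between single samples. Ms4a6c rose to 143, 114 and 113 FPKM, a log2 fold change of 2.12 (SE 0.242, adjusted p = 1.96e-05) and a ratio of 4.33. Ms4a6d rose to 224, 226 and 233 FPKM, a log2 fold change of 0.72 (SE 0.087, adjusted p = 3.03e-05) and a ratio of 1.65.

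Ms4a6b measured 18.5, 6.81 and 7.84 FPKM in IL-4+LPS and overlapped with IL-4, where replicate 1 was also the highest. Its log2 difference of 0.75 (95% interval -0.24 to 1.75) did not pass (adjusted p = 0.151), but did with replicates 2 and 3 only (0.76, adjusted p = 0.000304), without IL-4 replicate 1 (1.17, adjusted p = 0.0348) and with quantile normalization (1.12, adjusted p = 0.0496). Without IL-4+LPS replicate 1 the difference was smaller, at 0.34 (adjusted p = 0.494). Without IL-4 replicate 2 or 3 it was 0.54 and 0.55 (adjusted p = 0.359 and 0.353). Ms4a7 was at 496, 359 and 361 FPKM, close to its values after IL-4 alone, with a log2 difference of 0.07 (95% interval -0.38 to 0.53, adjusted p = 0.759). With replicates 2 and 3 only, Ms4a7 was called higher by 0.14 (adjusted p = 0.0111).

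Whether IL-4 pretreatment set the level reached under LPS was read from IL-4+LPS against LPS. Here 3 of the 5 genes were lower and none higher, against 15.8% and 15.0% of all rows (30.9% in either direction). The log2 fold change of Ms4a6b was -2.25 (SE 0.448, adjusted p = 0.00344), a level 4.94-fold lower after pretreatment (11.1 ± 6.50 FPKM, against 54.7 ± 24.2 FPKM for LPS alone). Ms4a6c was lower with a log2 fold change of -1.23 (SE 0.242, adjusted p = 0.00312), 2.39-fold between 293 ± 65.8 and 123 ± 17.1 FPKM. In neither gene did the groups overlap.

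Ms4a7 was lower with a log2 fold change of -0.64 (SE 0.205, adjusted p = 0.0383), 1.55-fold between 629.5 ± 113 and 406 ± 78.6 FPKM, again without overlap. This call was lost in 7 of the 12 fits that left out 1 sample, at adjusted p of 0.0501 to 0.128, and was kept with replicates 2 and 3 only (adjusted p = 2.62e-05). The samples whose removal ended it were LPS replicates 1, 2 and 3, IL-4+LPS replicates 2 and 3, and control replicates 2 and 3. Ms4a4c, at 9.92 ± 1.20 FPKM after both stimuli and 15.2 ± 2.26 FPKM after LPS alone, did not overlap between the groups and had a log2 difference of -0.56 (SE 0.195), just short of the threshold (adjusted p = 0.0506) and past it with replicates 2 and 3 only (adjusted p = 0.0263) or without IL-4+LPS replicate 1, control replicate 1 or control replicate 3 (adjusted p = 0.046, 0.0235 and 0.0206). It also passed with only the compared groups in the fit, median scaling, or the filter in at least 3 samples (adjusted p = 0.0322, 0.0464 and 0.0482). Ms4a4c stayed short of the threshold with a pseudocount of 0.1, no filter or quantile normalization (adjusted p = 0.246, 0.137 and 0.0681). The same held without LPS replicate 1 or IL-4+LPS replicate 2 or 3 (adjusted p = 0.155, 0.145 and 0.123). Ms4a6d was at 221 ± 15.5 and 228 ± 4.76 FPKM, a log2 difference of 0.05 (95% interval -0.15 to 0.24, adjusted p = 0.738).

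The interaction, the LPS response after IL-4 minus that without it, asks whether the 2 stimuli combined other than by addition on the log scale. None of the 5 genes was called in either direction by limma, while 2 had an unadjusted p under 0.05, and of all rows 4.58% were called positive and 4.63% negative (9.20% in all). Ms4a6c had an interaction of 1.04 (SE 0.342, adjusted p = 0.0873) and Ms4a4c of 0.92 (SE 0.275, adjusted p = 0.0661). Both differences pointed to a larger LPS response on the log scale after IL-4. The gains in FPKM pointed the other way, with Ms4a6c gaining 156 FPKM under LPS without IL-4 and 94.6 after it, and Ms4a4c 12.7 and 9.70. Ms4a6b, Ms4a6d and Ms4a7 had interactions of 0.93 (SE 0.633), -0.20 (SE 0.124) and 0.19 (SE 0.290).

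The interaction calls changed with the samples kept and with the fit. With replicates 2 and 3 only, 1459 of all rows were called positive and 1393 negative (512 and 518 with all samples), and 4 of the 5 genes were called, all positive: Ms4a6c at 1.22 (adjusted p = 0.000461), Ms4a6b at 1.04 (adjusted p = 0.00268), Ms4a4c at 0.83 (adjusted p = 0.0335) and Ms4a7 at 0.30 (adjusted p = 0.00866). Leaving out only IL-4 replicate 1, LPS replicate 1 or control replicate 3 called 1 gene each: Ms4a6c at 1.31 (adjusted p = 0.0178) and 1.22 (adjusted p = 0.0498), and Ms4a4c at 1.13 (adjusted p = 0.0181). Without control replicate 1 or IL-4+LPS replicate 1, none was called. With all samples and a replicate block in the fit, Ms4a6c (1.04, adjusted p = 0.00133), Ms4a4c (0.92, adjusted p = 0.00842) and Ms4a6b (0.93, adjusted p = 0.00849) were called positive. More of all rows were also called with the block, and the labels do not say whether a replicate number marks an animal.

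The makeup of the summed Ms4a message differed between groups. The 5 genes together gave 997 ± 141 FPKM (mean ± SD, n = 3) in control, 1213.5 ± 202 after LPS, 563 ± 140 after IL-4 and 777 ± 100.1 after both. Ms4a7 made up 68.3 ± 1.08% of the sum in control and 69.0 ± 2.38% after IL-4, but 51.8 ± 1.57% after LPS and 51.9 ± 3.20% after both. Its share was lower in every sample given LPS than in any other, and overlapped between control and IL-4, whereas its level was lower after IL-4. Ms4a6d made up 11.7 ± 0.77% in control and 25.0 ± 3.20% after IL-4, and 18.5 ± 3.19% after LPS and 29.6 ± 3.96% after both. The share of Ms4a6c was 13.8 ± 0.95% in control, 24.0 ± 1.37% after LPS, 4.96 ± 0.58% after IL-4 and 15.8 ± 0.24% after both. Ms4a6b made up 5.95 ± 0.92% in control and 1.03 ± 0.38% after IL-4, and Ms4a4c stayed at or below 1.32% in every sample. No test was run on these shares, which sum to the whole and so are not independent.

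**Figure D3:**
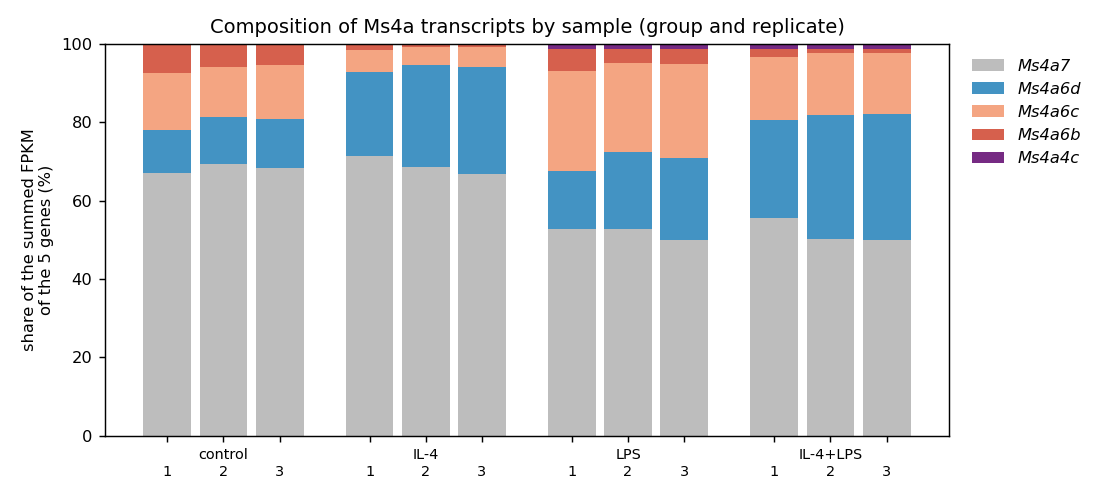
Share of each gene in the summed FPKM of the 5 Ms4a genes (percent, bars from 0 to the whole), 1 bar per sample, with group and replicate number under it. Ms4a7 (grey) holds 66.8% to 71.5% of the sum in control and IL-4 samples and 49.9% to 55.6% in samples given LPS, and Ms4a6d (blue) is wider after IL-4 than without it within each LPS condition.

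The order of the genes also changed. Ms4a6c ranked above Ms4a6d in control and LPS and below it in IL-4 and IL-4+LPS, with ranges that overlapped in control alone. In IL-4+LPS, Ms4a6b and Ms4a4c overlapped, at means of 11.1 and 9.92 FPKM with Ms4a6b the higher in 1 of 3 samples.

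Across the 12 samples the genes followed different partners. Pearson r of log2(FPKM + 1) was 0.969 between Ms4a6b and Ms4a7, 0.885 between Ms4a4c and Ms4a6c and 0.815 between Ms4a4c and Ms4a6d, and -0.123 between Ms4a6d and Ms4a7. These are descriptions over 4 groups of 3 samples that share treatment and replicate number. Among 11096 genes with a single row, the closest to Ms4a4c were Ifit3, an interferon-induced gene (r 0.996), Cybb, the NADPH oxidase heavy chain (0.994), and Ubr4 (0.991). Cybb had means of 181 FPKM in control, 622 after LPS, 78.7 after IL-4 and 427 after both. Closest to Ms4a6c were the costimulatory ligand Cd86 (0.994), Nfxl1 (0.988) and the transcription factor Tcf4 (0.978), with Cd86 at 9.30, 17.3, 2.16 and 8.85 FPKM in the same order of groups. Ms4a6b was nearest to Gdpd1 (0.980), Pvrl4 (0.977) and the inhibitory C-type lectin Clec12a (0.975). Ms4a6d was nearest to the splicing factor Tra2a (0.993), the BCL2 relative Bcl2a1b (0.990) and the immune checkpoint ligand Cd274 (0.989), and Ms4a7 to the complement gene C1qa (0.983), Ms4a6b (0.969) and the cholesterol transporter Abca1 (0.962). High values are common for some patterns: 531 genes exceeded 0.9 with Ms4a6d and 496 with Ms4a4c, against 94 with Ms4a6c, 80 with Ms4a6b and 51 with Ms4a7.

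A further 11 Ms4a genes had rows, and 2 of these passed the filter. Ms4a4b had differences of the same sign as those of its relative Ms4a4c at lower levels, with means of 0.995 FPKM in control, 2.20 after LPS, 0.121 after IL-4 and 1.06 after both. Its log2 fold changes were -0.81 for IL-4 (adjusted p = 0.0122), 0.71 for LPS (adjusted p = 0.0102), 0.88 for LPS after IL-4 (adjusted p = 0.00314) and -0.64 for IL-4+LPS against LPS (adjusted p = 0.0406). These values lie near the filter, and 2.85% of the 50-base words of the Ms4a4b transcript also occur in Ms4a4c. The part of reads from Ms4a4c in them was not tested. Ms4a3, a gene of granulocyte and monocyte precursors, ranged from 0.199 to 2.52 FPKM and was called in no comparison. Ms4a1 and Ms4a2 reached at most 0.106 and 0.080 FPKM, and 4 genes were at 0 in every sample. Ms4a8a and Ms4a4d stayed under 1 FPKM, and Ms4a4a was not analysed here.

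The CD20-like relatives Tmem176a and Tmem176b, which encode membrane proteins of similar topology and lie outside the cluster, were both called in the same direction as Ms4a6c in every comparison of groups. Tmem176b had means of 191 FPKM in control, 314 after LPS, 23.4 after IL-4 and 46.9 after both, and Tmem176a of 73.4, 132, 11.8 and 26.6 FPKM. The log2 fold changes for IL-4 were -3.00 (SE 0.180) and -2.54 (SE 0.094), and those for LPS 0.72 (SE 0.180) and 0.84 (SE 0.094). IL-4+LPS against LPS gave -2.73 and -2.27.

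Other genes in or next to the cluster were also read. Within 250 kb of the Ms4a genes, 9 other genes passed the filter, and IL-4 raised 2 of them, the peptide transporter Slc15a3 (log2 fold change 1.17, SE 0.108) and Tmem132a (1.17, SE 0.094), and lowered none. Over all rows tested, 16.0% were called higher and 21.0% lower after IL-4. Under LPS, 5 rose and 4 fell, against 16.9% and 57.7% of all rows. The largest increases were in the long RNA AW112010 (5.13, SE 0.428), which lies inside the cluster, and in Ccdc86 (2.23, SE 0.199). Of the 7 Ms4a genes that passed the filter, 5 were lower after IL-4. No test of the difference between the cluster and its neighbours was run.

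**Figure D4:**
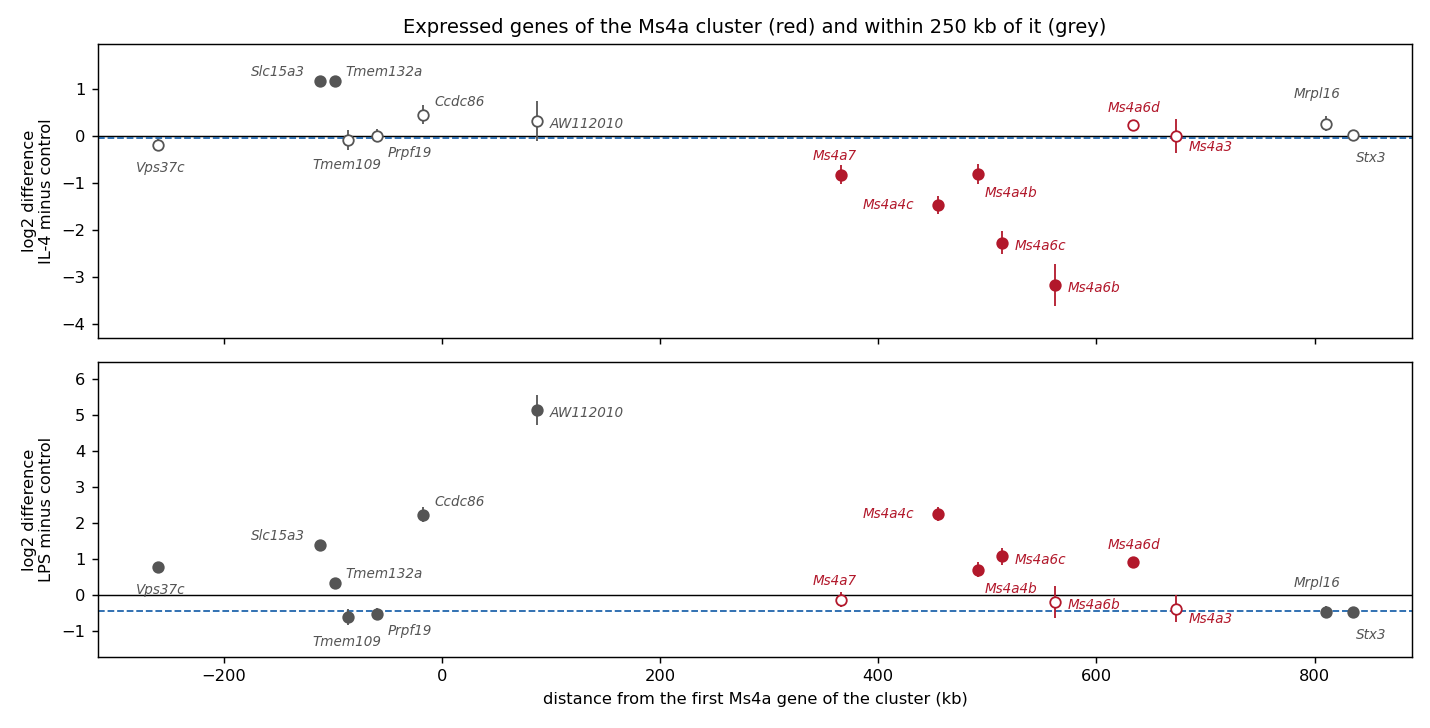
Log2 difference (bars, standard error of the limma fit) for IL-4 minus control (top) and LPS minus control (bottom), against distance from the first Ms4a gene in kb. Shown are the Ms4a genes that passed the filter (red) and other genes inside the cluster or within 250 kb of it (grey). Filled points have an adjusted p under 0.05 and the dashed line is the median of all rows. After IL-4, 5 Ms4a genes are filled and below 0 and no grey gene is, against 21.0% of all rows.

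Gene lists of the responses that IL-4 and LPS are known for were set beside the 5 genes. Of all rows tested, 16.9% were called higher with LPS and 15.0% with LPS after IL-4. With IL-4 alone, 16.0% were called higher and 21.0% lower. Of 14 interferon-stimulated genes, LPS raised 14 without IL-4 (median log2 fold change 5.69) and 14 after IL-4 (6.96), and IL-4 alone lowered 10 and raised 1, against a median of -0.05 over all rows. In IL-4+LPS against LPS, 1 of the 14 was lower and 13 were not called (median -0.10), against 15.8% of all rows lower. The interaction was called positive in 2 of the 14, against 4.58% of all rows. Lists of 10 inflammatory LPS-response genes and 12 alternative polarization genes were read under their own stimulus: 10 of 10 rose with LPS (median 6.12), and 12 of 12 with IL-4 (median 4.43). All these lists were chosen with earlier results of these data known, so their counts are no independent check. Of the 8 macrophage markers, 6 fell after IL-4 (median -0.84), among them Fcgr1, a high-affinity Fc receptor (-1.94, SE 0.175), and the lysozyme gene Lyz2 (-1.73, SE 0.069). Since 4 of the 5 Ms4a genes were lower in the same samples, the part of this shift in their result was not tested.

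Reported partners of MS4A proteins differed among themselves, and which MS4A protein each associates with was not examined. Clec7a, the beta-glucan receptor Dectin-1, rose with IL-4 (log2 fold change 1.67, SE 0.432, adjusted p = 0.0123), fell with LPS (-1.32, adjusted p = 0.0172) and was higher after both stimuli than after LPS alone (2.22, adjusted p = 0.00298). The lipid receptor gene Trem2 and its adaptor Tyrobp fell with LPS (-0.93 and -0.57, against the median of -0.44 over all rows), and Tyrobp fell slightly with IL-4 (-0.22, adjusted p = 0.0379) where Trem2 did not pass (-0.26, adjusted p = 0.0751). Vsig4 stayed at or under 0.214 FPKM and was not tested.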

How the data were processed

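The deposited tables hold FPKM values, 1 table for each of the 12 samples, which the authors computed from paired reads of poly-A selected TruSeq libraries. Per the submitters' processing notes, reads were mapped to mm10 with TopHat2 2.0.7 and quantified with Cufflinks 2.0.2; the gene annotation and any scaling between samples are not given in the sources used here. Because FPKM scales each sample to its own total, a shift in RNA composition moves all genes. Absolute depth is unknown, and no counting interval could be formed.

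Rows with at least 1 FPKM in at least 1 sample, the filter of the study, were kept and transformed to log2(FPKM + 1), which understates changes of low values. With limma 3.58.1 (R 4.3.3, eBayes with an intensity trend), 1 mean per group was estimated from the 12 samples together. P-values were two-sided and adjusted by Benjamini-Hochberg over all rows within each of the 5 comparisons, with a threshold of 0.05 and no fold minimum. The script was tested on simulated data. The per-gene test of the study was replaced by limma, which moderates the variance of each gene by that of the others.

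The 5 genes and all gene lists were chosen with earlier results of these data known. Named genes were the 5 members, other Ms4a and CD20-like genes, the 3 genes of highest Pearson r with each member, genes within 250 kb of the cluster, and up to 4 genes per list with the largest change; Ms4a1, Ms4a2, Ms4a4a, Ms4a4d, Ms4a8a, Vsig4, Mcpt4, Tpsb2, S100a8, S100a9 and Trem2 outside it were named after their values were seen. Adgre1 and Spi1 were read under the older symbols Emr1 and Sfpi1, and Ly6g was not analysed here. Locus starts in the files count from 0, and 1 was added. Transcripts and exons came from GENCODE vM21 and promoter windows from RefSeq (GRCm38.p6). Coding identity is the share of identical columns of a global alignment. Alternatives were a pseudocount of 0.1, no filter, quantile normalization, a filter of 1 FPKM in at least 3 samples, no intensity trend, median scaling, only the compared groups, a replicate block, replicates 2 and 3 only, and each sample left out in turn. Plots used matplotlib 3.10.9 (Python 3.11.15).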

Additional observations from a re-analysis of the deposited data

How the results depend on the processing

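Of 520 values of the 5 genes under alternatives, 471 kept their direction and side of the threshold, 30 newly passed it, 10 lost it and 9 changed sign; the cause was not tested. The replicate numbers were not taken to pair the samples, because neither the labels nor the study say that a number marks an animal. Samples of the same number tended to be alike. Their deviations from group means correlated positively in all 18 same-number pairs, and by over 0.1 in 11 (mean r 0.124, range 0.0024 to 0.386). Of 12 samples, 9 were closest to their own number. The fit without a replicate block leaves this likeness in its spread. With the replicate block, 1 of the 5 genes was higher after IL-4 (0 in the fit without it), 4 were higher in IL-4+LPS than in IL-4 (3 without; Ms4a6b added, 0.753, adjusted p = 0.000492), 4 were lower after both stimuli than after LPS alone (3 without; Ms4a4c added, -0.562, adjusted p = 0.00588), and 3 had a positive interaction (0 without): Ms4a4c (adjusted p = 0.00842), Ms4a6b (0.00849) and Ms4a6c (0.00133). The gene higher after IL-4 was Ms4a6d (adjusted p = 0.0255). Over all rows, the block gave 2667 rows lower after both stimuli than after LPS alone (1771 without), and 1145 positive and 1095 negative interactions (512 and 518). Replicates 2 and 3 only gave 1 gene higher after IL-4, 2 lower under LPS (Ms4a6b and Ms4a7), 5 higher in IL-4+LPS than in IL-4 and 4 positive interactions. Over all rows it gave 2881 rows lower after both stimuli than after LPS alone, and 1459 positive and 1393 negative interactions. For the other comparisons, counts over all rows in these fits are not given here, so the gene counts have no share to be read against. A pseudocount of 0.1 called 1 positive interaction, Ms4a4c at 2.46 (adjusted p = 0.0175).

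Scaling moved the LPS counts. Higher rows under LPS numbered 2903 with quantile normalization and 2966 with median scaling (1887 as reported). In IL-4+LPS against IL-4, median scaling gave 2629 higher (1682) and 4057 lower rows, and quantile normalization 4173 lower (6474). Signs that turned were those of differences that did not pass the threshold: Ms4a6b under LPS with median scaling (0.185), without control replicate 1 (0.052) or without LPS replicate 2 (0.04; lowest -0.512, without LPS replicate 1), Ms4a7 under LPS with median scaling (0.252), Ms4a6d in IL-4+LPS against LPS with quantile normalization (-0.089), and Ms4a7 in IL-4+LPS against IL-4 with quantile normalization (-0.073), without IL-4+LPS replicate 1 (-0.08), or without IL-4 replicate 2 (-0.03) or 3 (-0.044; highest 0.296, without IL-4 replicate 1). With single samples left out, 0 to 1 genes were higher after IL-4 (1 without control replicate 1 or IL-4 replicate 2), 0 to 1 had a positive interaction, and all rows gave 307 to 622 positive interactions (lowest without LPS replicate 3) and 332 to 649 negative ones (lowest without IL-4 replicate 3). Besides leaving out samples, the Ms4a7 call in IL-4+LPS against LPS was lost with no filter (adjusted p = 0.115), quantile normalization (0.0588) and only the compared groups (0.0572). Low FPKM of Ms4a4c after IL-4 rests on an unknown, small number of fragments.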
